A study of Rattus norvegicus with 10 samples.

Results

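Alas2 (NM_013197), the erythroid form of 5-aminolevulinate synthase, was 1 of the 4803 accessions spotted on the arrays. It was chosen by the brightness of its spot in the shaft of the rat tibia, and the same arrays supply every value given here. Ranked by log2 intensity averaged over all channels, Alas2 came 74th. The right tibiae of 5 female Wistar rats were bent for 300 cycles at 2 Hz with the device set to a peak of 60 N (LOAD), and those of 5 others were squeezed between opposed pads without bending (SHAM). The rats were 12 weeks old. The left tibia of each rat was its contralateral control, RNA was taken 6 hours after the session, and each array held the treated and the control tibia of 1 rat in different dyes. The treated tibia was in Cy3 on 6 arrays (LOAD 1, 3 and 4, SHAM 1, 3 and 5) and in Cy5 on 4 (LOAD 2 and 5, SHAM 2 and 4).

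Alas2 joins glycine and succinyl-CoA in the mitochondria of red cell precursors, the first and controlling step of their heme synthesis. Other cells use the related enzyme Alas1. In adult rats red cells are made largely in the bone marrow, and their precursors and reticulocytes hold most Alas2 mRNA. The ends, the periosteum and the marrow had been removed from these tibiae before RNA isolation. The arrays measured a bulk extract, in which fewer red cell precursors and less Alas2 RNA per cell cannot be told apart.

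The rat Alas2 gene lies on chromosome X (GRCr8, 22890650 to 22914046, plus strand), and RefSeq's 300-base window at its start (250 bases before and 50 after) lies inside that span, at chrX:22895200-22895499. Erythroid genes are known for sites of the factor GATA1, so the letters AGATAA were searched on both strands (TTATCT on the other) in the windows of Alas2 and of the erythroid and heme synthesis genes described below. RefSeq held a window for 12 of these 17 genes, and 3 of the 12 had a match, against 11.6% of all 33469 windows. The matches are shown with 12 bases to either side, in the direction of the gene, with the matched letters in capitals; they are descriptions of sequence, and the sequences of the spotted oligonucleotides were not used here.
Alas2, chrX:22895302-22895331, plus strand: ccttgctgagaaAGATAAtgaggggggaat
Add2, chr4:120054791-120054820, plus strand: gagatcctgcctTTATCTgaacatggcagg
Epor, chr8:28770419-28770448, minus strand: gaggcccgtagcTTATCTgtcccggactgc
The Alas2 match ended 130 bases before the start site used for its window, and so lay inside the gene span given above.

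Alas2 gave strong signal in every tibia. The probability of signal was 1 in all 20 channels, and the confidence of its spot was between 0.84 and 0.99. In the order LOAD 1 to LOAD 5, the deposited intensity was 16377, 2835, 9254, 9508 and 5800 in the loaded tibiae, against 10357, 3568, 19909, 12152 and 11919 in their contralateral controls. In the order SHAM 1 to SHAM 5 it was 9914, 14194, 5671, 9743 and 13817 in the squeezed tibiae, against 18672, 8430, 13780, 10148 and 24566 in their controls. The lowest pair was that of LOAD 2, whose array was also the dimmest, with a median intensity of 100.1 over all spots in the treated channel and 160.3 in the control channel. Set against the median spot of its own channel, Alas2 was brighter by 22.3-fold to 51.7-fold in all 20 tibiae. It was among the 173 brightest of the 4803 spots in every channel.

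After loess within arrays and Aquantile, which gives all arrays the same distribution of mean intensities, the log2 level of Alas2 averaged 13.21 ± 0.54 in loaded tibiae, 13.30 ± 0.61 in their controls, 13.35 ± 0.08 in squeezed tibiae and 13.45 ± 0.35 in theirs (SD, n = 5 each). Most tibiae lay close together, and the spread came from a few. In loaded tibiae the levels of rats 1 to 5 were 13.65, 13.38, 13.24, 13.51 and 12.29, and in their controls 13.88, 12.28, 13.57, 13.22 and 13.53. In squeezed tibiae they were 13.23, 13.42, 13.32, 13.40 and 13.35, and in theirs 13.40, 14.05, 13.28, 13.35 and 13.15. The low values were the loaded tibia of LOAD 5 and the control tibia of LOAD 2, the high value was the control tibia of SHAM 2, and all 4 groups overlapped. SHAM 1 is called SHAM in its title and description but LOAD in a single label field, and was counted as SHAM.

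**Figure D1:**
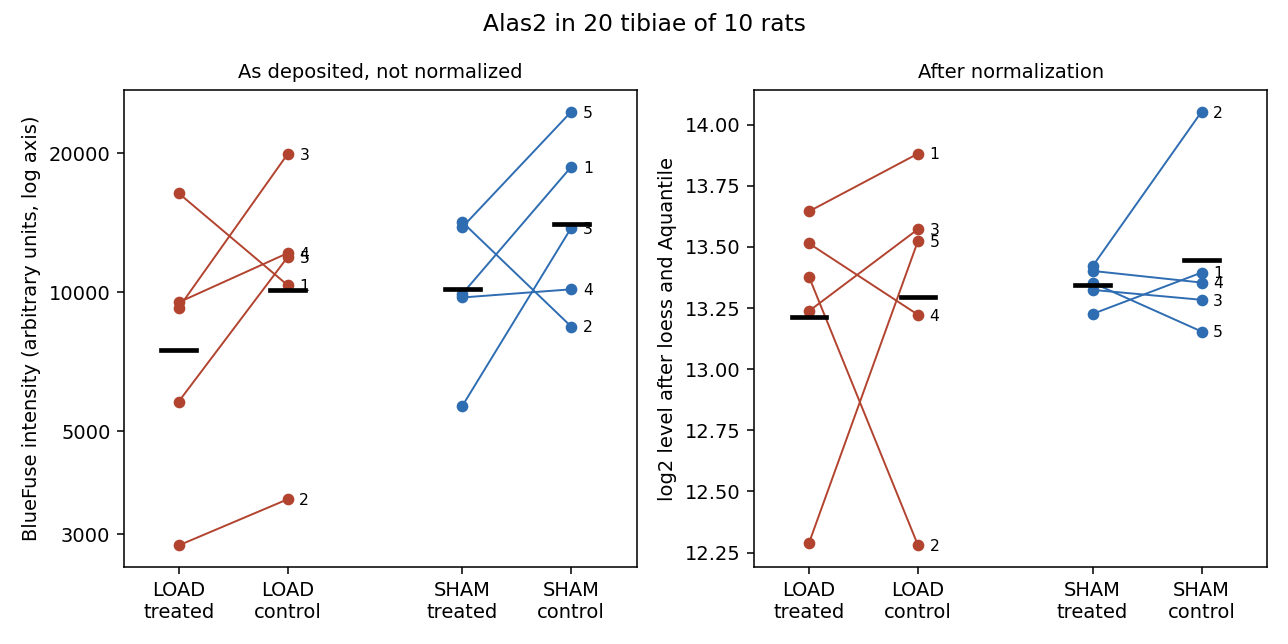
Alas2 in each tibia, as deposited intensity on a log axis (left) and as log2 level after loess and Aquantile (right). Each line joins the treated (left point) and control tibia of 1 rat, numbered by replicate, in LOAD (red) and SHAM (blue), and black bars are means (geometric for intensities). After normalization the squeezed tibiae lie between 13.23 and 13.42, and the loaded tibiae between 12.29 and 13.65.

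Between the groups, the log2 level in loaded minus that in squeezed tibiae was -0.13 (standard error 0.39; limma, adjusted p = 0.988), and that in LOAD minus that in SHAM controls was -0.15 (standard error 0.39; adjusted p = 0.960). In exact 2-sided permutation tests of 5 against 5 tibiae, p was 0.849 for the treated and 0.706 for the control tibiae. The sign of both differences rests on single arrays: without LOAD 2 and LOAD 5 they were 0.12 and 0.11. Over the 4472 genes measured on all arrays, 0 passed a false discovery rate of 20% in either comparison (0% for treated and 0% for control tibiae), while 217 and 237 had an unadjusted p under 0.05 in limma.

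No relation was detected between the Alas2 levels of the right and the left tibia. Over the 10 rats, Pearson's r between the treated and the control tibia was -0.03 and Spearman's rho 0.05 (permutation p = 0.907 and 0.893), and r was 0.35 without LOAD 2 and LOAD 5, the rats farthest from the median. The SD of the rats' mean levels was 0.30, and that of the difference between both tibiae of a rat 0.61. These SDs are on unlike scales, since a mean of unrelated values varies less than their difference. They do not compare the spread between rats with that within rats. For comparison, the median gene had an r of 0.78 between the tibiae of a rat, and 1.27% of genes had a lower r than Alas2. Both tibiae of a rat shared an array, so that a likeness of rats and a likeness within an array cannot be told apart. With each channel only centred on its median, r for Alas2 was 0.46 (permutation p = 0.177).

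The log2 ratio of treated to control tibia separated the same rats. On the arrays LOAD 1 to LOAD 5 the loess-normalized ratio of Alas2 was -0.24, 1.10, -0.34, 0.29 and -1.24. On SHAM 1 to SHAM 5 it was -0.17, -0.63, 0.04, 0.05 and 0.20. Alas2 was thus 2.14 times higher in the loaded than in the control tibia of LOAD 2, and on LOAD 5 the loaded tibia had 0.424 times the level of the control. The other 8 arrays lay between -0.63 and 0.29, in both directions.

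Neither loading nor squeezing was followed by a difference in Alas2 beyond the spread between rats. The mean log2 ratio was -0.08 ± 0.86 in LOAD and -0.10 ± 0.32 in SHAM (SD, n = 5 each), with 2 of 5 ratios above 0 in LOAD and 3 of 5 in SHAM. The difference, LOAD minus SHAM, was 0.02 (standard error 0.35), with a 95% interval of -0.74 to 0.78. In limma's test over 4707 genes the adjusted p was 1.00 for LOAD, 1.00 for SHAM and 0.999 for the difference. In exact 2-sided tests p was 0.75 for the 5 LOAD ratios and 0.75 for the 5 SHAM ratios (sign flips, smallest possible p 0.0625), 0.952 for the difference (permutation) and 0.637 for all 10 ratios, with a mean of -0.09 ± 0.61. No gene passed a false discovery rate of 20% (0% in LOAD, 0% in SHAM and 0% in the difference), and 157, 32 and 70 genes had an unadjusted p under 0.05.

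LOAD 2 and LOAD 5 carried most of the spread, in opposite directions. The mean of LOAD was -0.38 without LOAD 2 and 0.20 without LOAD 5, and -0.09 without both. A code in the file headers split the arrays into 4 sets, taken here as scan batches, a name that the labels do not give. Within them the difference between LOAD and SHAM was 0.83 (2 arrays of each), -0.38, 0.24 and -1.44 (1 of each), with no common sign. Over all 10 arrays the SD of the Alas2 ratio was 0.61, against 0.23 for the median gene, and 170 of 4472 genes had a larger SD.

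The normalization moved the ratio of single arrays, most on LOAD 2. With each array only centred on its median, the ratios were -0.14, 0.35, -0.28, -0.20 and -0.89 on LOAD 1 to 5 and -0.35, -0.04, -0.10, 0.41 and -0.10 on SHAM 1 to 5. The loess ratio minus the median-centred one ran from -0.59 to 0.75, and the sign differed on LOAD 4, SHAM 3 and SHAM 5. On this scale the means were -0.23 ± 0.44 in LOAD and -0.04 ± 0.28 in SHAM (SD, n = 5 each), 8 of 10 ratios were below 0, and the SD over all arrays was 0.36 against 0.29 for the median gene. The low ratio of LOAD 5 and the high ratio of LOAD 2 had the same sign on both scales. The ratio of SHAM 2 kept its sign too, but it was low only with loess (-0.63, against -0.04 when centred).

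**Figure D2:**
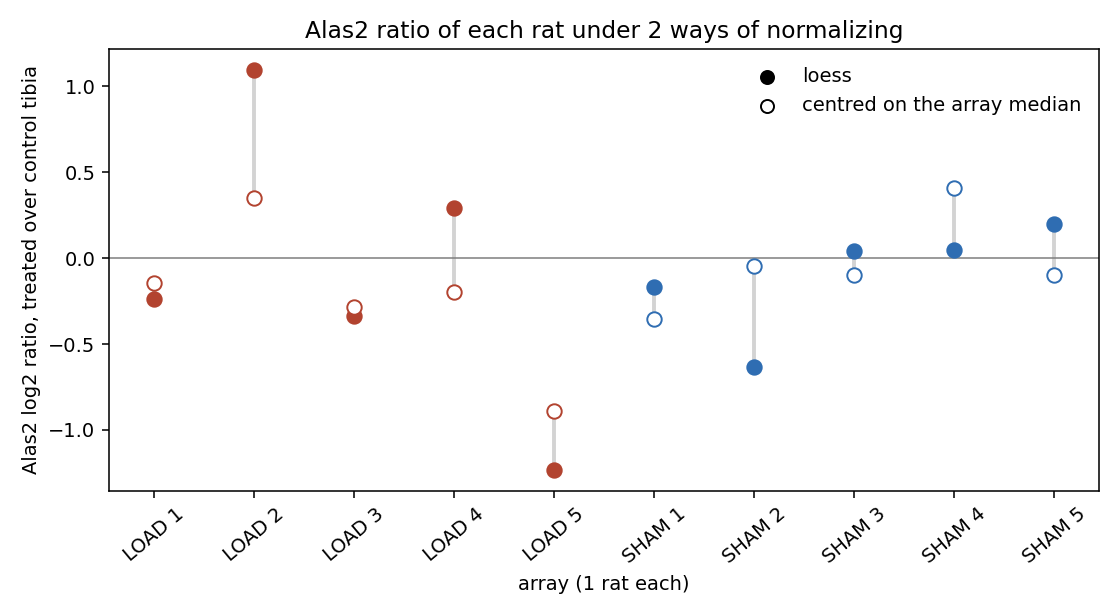
Log2 ratio of Alas2, treated over contralateral control tibia, on each array, normalized by loess (filled) or centred on the array's median (open), with LOAD in red and SHAM in blue. LOAD 2 lies at 1.10 with loess and at 0.35 when centred, and LOAD 4, SHAM 3 and SHAM 5 change sign.

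To find the genes that followed Alas2, Pearson's r was taken between its loess ratios and those of each of the other 4471 genes with a value on all 10 arrays, as a description with no test. An r of at least 0.7 was found for 596 genes (13.3%) and an r of at most -0.7 for 483 (10.8%), and the median over all genes was -0.0044. The same count, taken for every gene in turn, had a median of 147.5, and 93.2% of genes had fewer followers than Alas2. The ratios of different genes share their array, its dyes and its normalization. A single principal component held 41.9% of the variance of all log2 ratios, and its r with Alas2 was 0.81. On arrays with the treated tibia in Cy5 it was -0.50 (LOAD 5), -0.43 (SHAM 2), -0.29 (SHAM 4) and 0.38 (LOAD 2). With the treated tibia in Cy3 it ran from -0.08 (LOAD 3) to 0.51 (LOAD 4). With the mean of each of these sets of arrays removed, 732 genes had an r of at least 0.7, among them all 596. LOAD 4, LOAD 2 and LOAD 5 had the lowest median confidence of all arrays (0.53, 0.55 and 0.59, against 0.64 to 0.72 on the others) and the widest spread of ratios (SD 0.40, 0.41 and 0.40, against 0.13 to 0.34). The parts of array quality and of the dyes in the followers were not tested.

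The accessions with the highest r had no gene name, AB015191 (0.98) and L17127 (0.97). Among the 10 named genes with the highest r were Ppm1a, a protein phosphatase (0.95), Car2, the carbonic anhydrase of red cells and osteoclasts (0.94), Slc16a1, a lactate transporter (0.93), Rpsa, a protein of the small ribosomal subunit (0.93), Glul, glutamine synthetase (0.93), Lyz2, the lysozyme of myeloid cells (0.92), Hmox1, the inducible heme oxygenase (0.92), Tacr3, a neurokinin receptor (0.92), and Gdi2, which binds Rab proteins (0.92). The 10 ranked 16th to 65th of 4471. The 5 named genes with the lowest r were Cox6c, a cytochrome oxidase subunit (-0.95), Oxt, the oxytocin precursor (-0.94), Sod2, the mitochondrial superoxide dismutase (-0.94), Sord, sorbitol dehydrogenase (-0.94), and Fdx1, a mitochondrial ferredoxin (-0.92).

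Car2 had log2 ratios of -0.08, 1.49, -0.07, 0.98 and -1.17 on LOAD 1 to 5 and of -0.06, -0.59, -0.14, -0.21 and 0.16 on SHAM 1 to 5. Lyz2 had 0.14, 1.70, 0.33, 0.82 and -1.32 on the LOAD arrays and 0.25, -0.47, -0.16, -0.22 and 0.44 on the SHAM arrays. Both were high on the arrays where Alas2 was highest (LOAD 2, LOAD 4) and low where it was lowest (LOAD 5, SHAM 2). On the other arrays they lay between -0.22 and 0.44, and on LOAD 3, where Alas2 was -0.34, Lyz2 was 0.33. Without LOAD 2 and LOAD 5, r with Alas2 was 0.76 for Car2 and 0.61 for Lyz2. With median-centred ratios of the same arrays it was 0.20 and -0.01. Ppm1a had a far narrower range, from -0.18 on LOAD 5 to 0.32 on LOAD 2. Hmox1, which breaks heme down, had 0.94 on LOAD 2 and -0.99 on LOAD 5, but 0.43 on SHAM 4, where the Alas2 ratio was 0.05.

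Of 14 other enzymes and carriers of heme synthesis sought, 3 were found with a value on every array among the 1181 accessions that had a gene name. Alad, which makes porphobilinogen in the second step of the pathway, had an r of 0.80 with Alas2, and its ratios were -0.07, 0.48, -0.20, 0.94 and -1.24 on LOAD 1 to 5 and -0.06, -0.94, 0.01, -0.66 and 0.38 on SHAM 1 to 5. Its lowest array was LOAD 5, as for Alas2, but its highest was LOAD 4. Its log2 ratio averaged -0.02 in LOAD and -0.25 in SHAM (standard error 0.26 each; limma, adjusted p = 1.00 for both). Tspo, a mitochondrial membrane protein linked to porphyrin transport, had an r of -0.58.

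Of 42 erythroid genes sought, 13 were found among the named accessions with a value on every array, and no globin gene was found there. The other accessions carried no name here. Their r with Alas2 was above 0 for 12 of 13 and had a median of 0.61, beside -0.0044 over all genes. It reached 0.7 for 5 of 13, beside the 13.3% of all genes. These were Car2 (0.94), the membrane skeleton protein gene Add2 (0.91), the antioxidant enzyme Prdx2 (0.89), the erythroid transcription factor Gata1 (0.82) and the water channel Aqp1 (0.80). Cat, which degrades hydrogen peroxide, had 0.69, Add1, the partner of Add2, 0.61, and Slc4a1 (an anion exchanger), Epor (the erythropoietin receptor), Tmod1 (a cap of the membrane skeleton's actin) and Slc14a1 (a urea transporter) lay between 0.31 and 0.56. Pklr, the pyruvate kinase of red cells and liver, had -0.57. The signal probability reached 0.5 in only 4 of 20 channels for Epor, 8 for Slc14a1 and 19 for Add1, and in all 20 for the other 10 genes.

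Slc4a1, the band 3 anion exchanger of the red cell membrane, varied more than Alas2 and had its extremes on other arrays. Its log2 ratios were 0.06, 1.07, -1.02, 1.61 and -0.71 on LOAD 1 to 5 and 0.90, -2.30, 0.07, -1.61 and 2.43 on SHAM 1 to 5, with an SD of 1.49 over all arrays. On SHAM 5 and SHAM 4 it was 2.43 and -1.61 while Alas2 was 0.20 and 0.05. Its r with Alas2 was 0.56 and its Spearman's rho 0.71. Without LOAD 2 and LOAD 5 its r was 0.74, and with median-centred ratios of all 10 arrays it was -0.0032. Gata1 kept to a range of -0.30 on LOAD 5 to 0.26 on SHAM 5, and Prdx2 to one of -0.30 on LOAD 5 to 0.31 on LOAD 2. The summed level of the 13 genes was 20773 to 31069 in loaded tibiae and 15907 to 33488 in their controls, and 22080 to 31335 in squeezed tibiae and 24395 to 31538 in theirs, with overlap of all groups. None of the 16 erythroid and heme synthesis genes besides Alas2 passed a false discovery rate of 20% in LOAD or SHAM (0 of 16 each, beside 0% of all genes), and the median log2 ratio of the erythroid genes was 0.0046 in LOAD and -0.07 in SHAM.

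**Figure D3:**
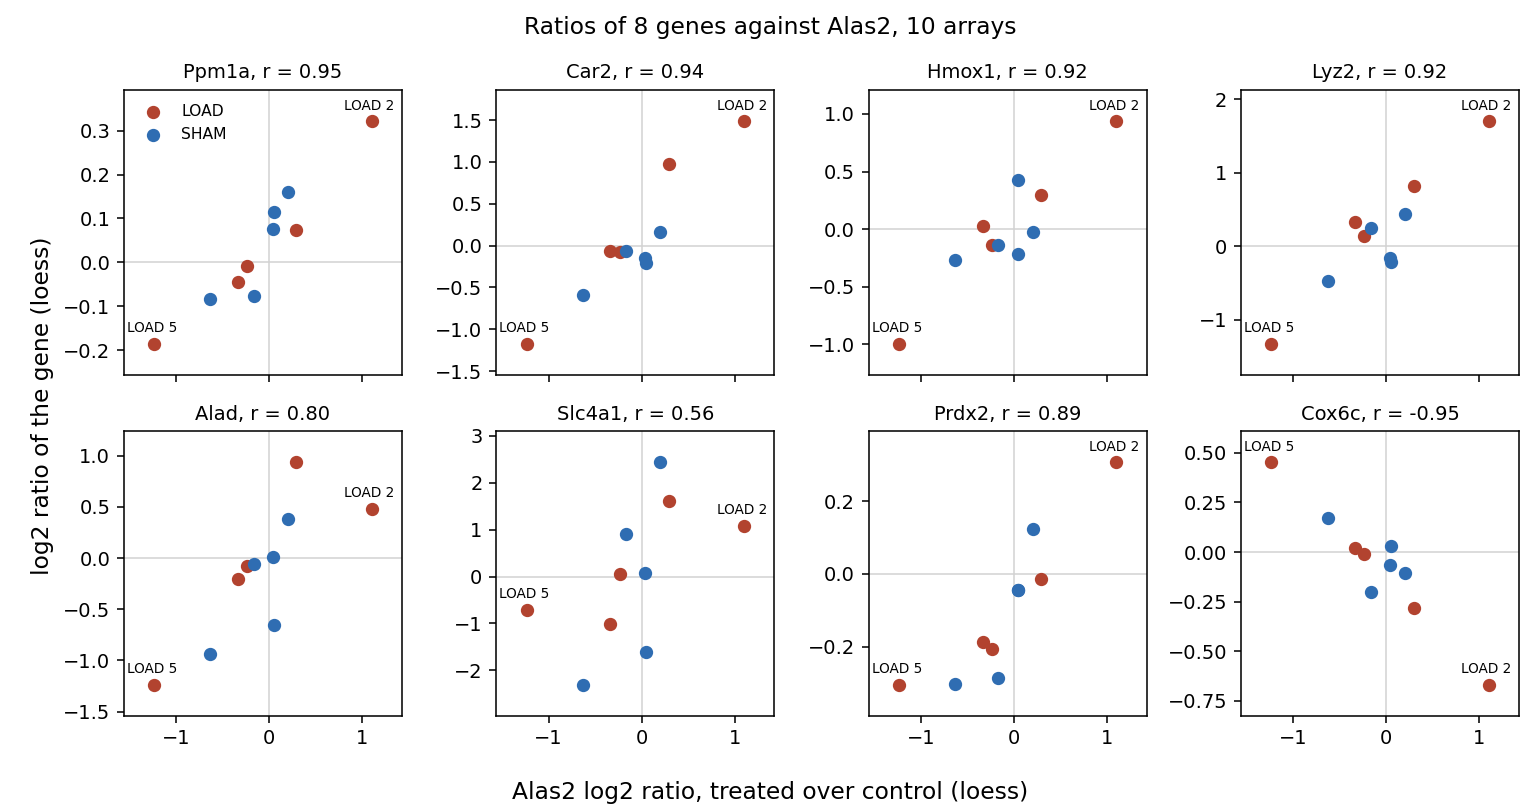
Loess log2 ratios of 8 genes (treated over control tibia, vertical axis) against those of Alas2 (horizontal axis) on the 10 arrays, LOAD in red and SHAM in blue. LOAD 2 and LOAD 5 lie at the ends for Ppm1a, Car2, Hmox1, Lyz2 and, turned round, for Cox6c (r = -0.95), while LOAD 4 lies highest for Alad (0.80) and SHAM 5 for Slc4a1 (0.56).

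Among genes of iron and heme handling, 2 of 5 reached an r of 0.7, beside the 13.3% of all genes. These were Hmox1 (0.92) and the ferroxidase Cp (0.75). The iron transporter Slc11a2 had 0.68, the hemoglobin-binding Hp 0.29 and the ferritin chain Fth1 -0.66. The r of Cp was not stable: 0.50 without LOAD 2 and LOAD 5, 0.37 with median centring and -0.41 with both changes. Over the 10 arrays, the median ratio of these 5 genes had a Pearson's r of 0.95 and a Spearman's rho of 0.90 with Alas2. The erythroid list had 0.90 and 0.90, and the heme synthesis list, with 3 genes, 0.76 and 0.82. These are descriptions with no test, since the lists were chosen with earlier results of these arrays known and share the arrays with the search for followers. With the mean of each scan batch removed, a setting chosen after seeing the data, r was 0.92 for iron and heme handling, 0.96 for the erythroid list and 0.91 for heme synthesis. Over the 4 arrays of the largest batch it was 0.95, 0.96 and 0.93. Over these 4 arrays the other lists with at least 3 genes, described below, ran from -0.97 (adipocyte) to 0.77 (granulocyte). Osteoblast and matrix genes had -0.93 there and osteocyte genes 0.00087, so large values were not particular to the 3 lists. With the mean of each batch removed, 752 genes had an r of at least 0.7, and 577 of them were among the 596.

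Lists of other cells in marrow, bone and muscle gave mixed values. The 5 granulocyte genes had a median r of 0.45, from Cebpe, a transcription factor of granulocyte precursors (0.90), to Anxa1, an annexin of neutrophils (-0.81). The median ratio of these 5 genes had an r of 0.69 with Alas2, close to the 0.76 of heme synthesis on that measure. For the lists that follow with at least 3 genes, the r of the median ratio ran from -0.55 (mast cell) to 0.34 (cell division). The 6 genes of monocytes, macrophages and osteoclasts had a median of 0.22, from Lyz2 (0.92) to Ctss, cathepsin S (-0.70), and the 13 lymphocyte genes one of -0.09, from the tetraspanin Cd37 (0.87) to the surface protein Cd24 (-0.75). All 5 mast cell genes, proteases of their granules, were below 0, from -0.65 for Cma1 to -0.33 for Tpsb2, beside a median of -0.0044 over all genes. This sign depended on the setting. With median-centred ratios the median of the 5 was -0.13, and Tpsb2 had 0.26. With median centring and without LOAD 2 and LOAD 5, all 5 were above 0, from 0.50 for Mcpt10 to 0.65 for Mcpt4. Platelet genes ran from thromboxane synthase Tbxas1 (-0.39) to cyclooxygenase Ptgs1 (0.48), and genes of cell division from the mitotic kinase Cdk1 (-0.88) to the microtubule regulator Stmn1 (0.84). Adipocyte genes ran from lipoprotein lipase Lpl (-0.79) to the uncoupling protein Ucp1 (0.40). The vessel genes endothelin Edn1 (-0.50) and the VEGF receptor Kdr (0.59) reached a signal probability of 0.5 in only 12 and 4 of 20 channels.

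The 8 osteoblast and matrix genes had a median r of 0.28, from Mgp, an inhibitor of mineralization (-0.83), to Sparc, osteonectin (0.87). The 5 osteocyte genes had -0.02, from the membrane protein Pdpn (-0.68) to the endopeptidase Phex (0.51), with the osteocyte glycoprotein Mepe at -0.09. The 15 muscle genes had -0.02, from the cytochrome oxidase subunit Cox8b (-0.72) to the slow myosin light chain Myl3 (0.56, signal in 13 of 20 channels), with Ckm, the muscle creatine kinase, at 0.12 and the myosin light chain Myl11 at -0.02. The ribosomal proteins had a median of -0.22, from Rps26 (-0.76) to Rpsa (0.93), and Gapdh, a glycolytic enzyme expressed in all cells, had 0.87 and ranked 187th. Without LOAD 2 and LOAD 5 the medians were 0.18 for osteoblast and matrix genes, 0.02 for osteocyte genes, -0.39 for muscle genes and -0.70 for ribosomal proteins.

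The set of followers changed with the arrays and the normalization. Without LOAD 2 and LOAD 5, 402 genes (8.99%) had an r of at least 0.7, and 190 of them were among the 596. With median-centred ratios of all 10 arrays there were 192 (4.29%), of which 138 were among the 596, and with both changes 203, of which 28 were. Under median centring 1 of the 16 erythroid and heme synthesis genes reached 0.7, Car2 (0.76), while Add2 had 0.69, Gata1 0.52, Alad 0.39 and Prdx2 0.05. With both changes Car2 had 0.20, Add2 0.05, Gata1 0.32, Alad -0.37 and Prdx2 0.80. With median-centred ratios of all 10 arrays, the r of the list medians was 0.74 for iron and heme handling. It was 0.53 for erythroid genes and -0.04 for heme synthesis.

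An r of at least 0.7 under both normalizations, with and without LOAD 2 and LOAD 5, was reached by 7 of 4471 genes, which were picked out after their values were seen. Ppm1a had 0.95 and 0.85 with loess and 0.81 and 0.87 with median centring. Nqo1, a quinone reductase, had 0.84 and 0.77 with loess and 0.89 and 0.94 with median centring. The other 5 were AF115346, L10339, L12384, U75917 and U61729, which stayed unnamed. Hmox1 had 0.92 and 0.58 with loess and 0.91 and 0.72 with median centring.

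**Figure D4:**
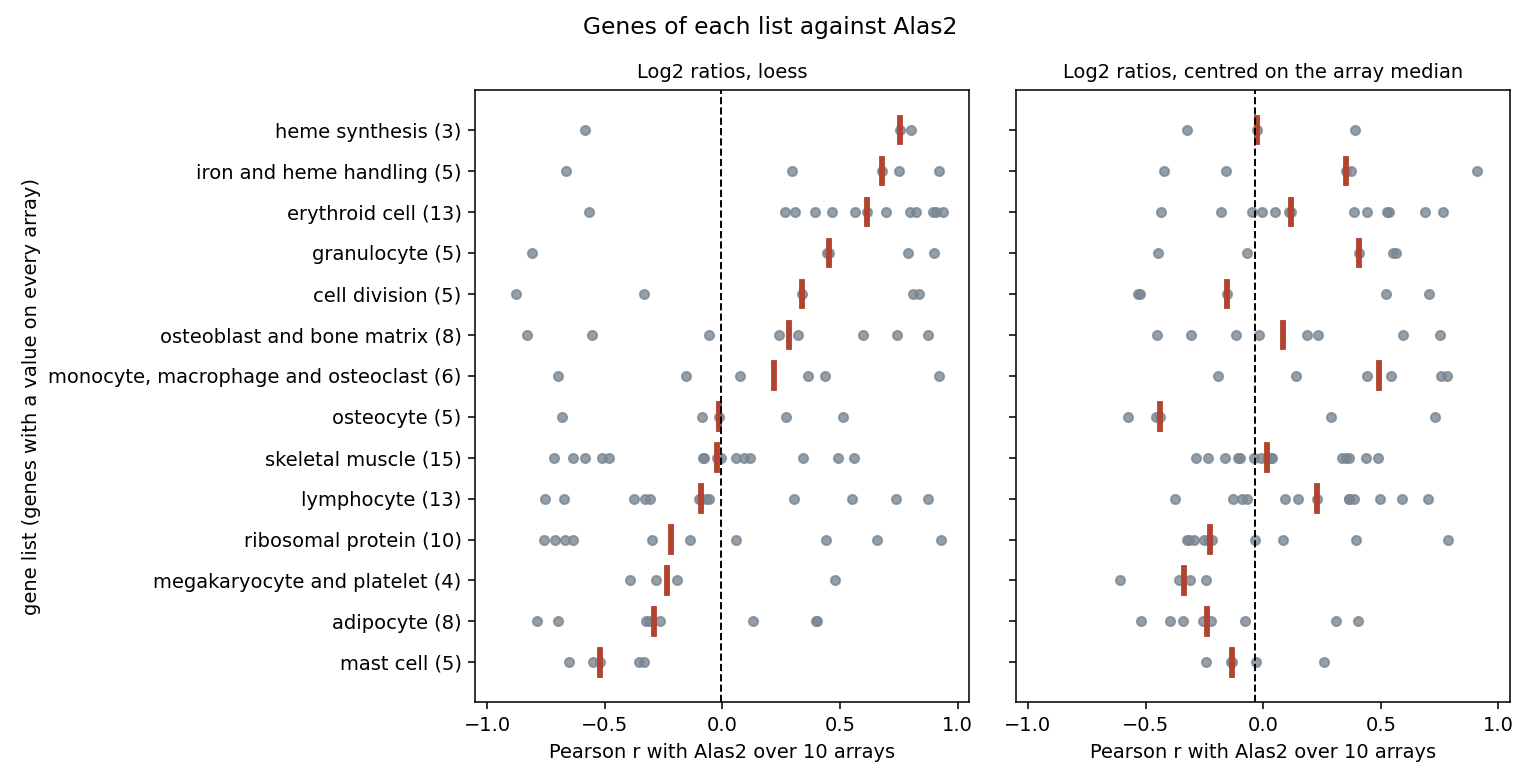
Pearson's r of single genes with Alas2 over the 10 arrays, by gene list, for loess (left) and median-centred ratios (right). Grey points are genes, red bars the medians of the lists and dashed lines the medians of all genes; the erythroid median is 0.61 with loess and 0.12 with median centring.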

How the data were processed

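RNA of the treated and the contralateral tibia of 10 rats (5 LOAD, 5 SHAM) was hybridized to 10 arrays of spotted oligonucleotides with a pair of dyes; groups and dyes were taken from the labels. The authors quantified the scans with BlueFuse (version 2.0 in the file headers). The deposited files hold 1 row per accession, whereas the methods kept duplicate spots apart; how they were brought together is not given in the sources used here. Per row, the deposited files hold an intensity for each channel, not normalized, and 2 fractions: the confidence and the probability of signal. The deposited matrix holds log2 ratios (treated over control). These were the same as unnormalized ratios of the intensities within 0.0015 in all 4803 rows on every array, and were not used further. The methods state some cross-reactivity between the spotted oligonucleotides.

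Values of spots whose confidence was below 0.11 were dropped. Log2 ratios were normalized by loess (span 0.3, 4 iterations), and genes with more than 1 missing value were left out of the fits. Means of LOAD and SHAM were fitted in limma 3.58.1 (R 4.3.3) with Benjamini-Hochberg adjustment, and levels by its single channel analysis after Aquantile. Relations over arrays were computed in Python 3.11.15 with numpy 2.4.6 and scipy 1.17.1 with 100000 permutations, 2-sided, where a p is given. Dyes and directions follow the labels; LOAD 2 and LOAD 5, both with the treated tibia in Cy5, correlated at -0.35 over all genes. Of 4803 accessions, 1177 were named through RefSeq and 4 from the study. Alas2, the 16 gene lists and the rule for named genes (listed erythroid and heme genes; the 10 highest and 5 lowest r; the extremes of each list; landmarks) were chosen with earlier results of these data known. The alternatives changed normalization, filters, dye, batch and replicate terms and the arrays included. The fits and correlations were tested on simulated data. A few genes that the rule names are not reported here.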

Additional observations from a re-analysis of the deposited data

Results flagged for a closer look

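The contralateral control tibia of SHAM 2 had an Alas2 log2 level of 14.05, far from the other 4 SHAM controls, which lay between 13.15 and 13.40. The gap to the nearest of them was 0.732 of the whole range of the group. It was the only such case among 38 groups of 5 examined. Chance gives about 1 such case in 20 groups, so that 1 among 38 is no more than chance gives. The deposited intensity of 8430 was the lowest of the SHAM controls, and with each channel centred on its median the log2 level was 5.56, against 5.04 to 5.39 in the other 4.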

How the results depend on the processing

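The tests of Alas2 stayed on the same side of their thresholds under every alternative run, with a lowest adjusted p of 0.766 for LOAD, 0.378 for SHAM and 0.855 for their difference. Directions were less stable. LOAD minus SHAM, 0.02, was -0.20 with median centring, -0.17 with median centring and without LOAD 2 and LOAD 5 (chosen after seeing the data), -0.012 with SHAM 1 counted as LOAD and -0.42 with the dyes of LOAD 2 exchanged. With these dyes exchanged the ratio in LOAD, -0.08, was -0.52 (standard error 0.20, limma, unadjusted p = 0.0205, adjusted p = 0.853). With each replicate left out in turn, LOAD minus SHAM lay between -0.28 and 0.31 and the ratio in LOAD between -0.38 and 0.20. The ratio in SHAM then lay between -0.18 and 0.030 and that of all 10 rats between -0.23 and 0.034. The treated level difference lay between -0.24 and 0.10 and the control level difference between -0.30 and 0.11. Without LOAD 2 and LOAD 5 these level differences were 0.12 and 0.11. The r of right and left levels was 0.46 with channels centred on their medians, 0.16 after quantile normalization, 0.35 without the 2 farthest rats and between -0.18 and 0.24 with a rat left out.

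Genes with an r of at least 0.7 and of at most -0.7 numbered 192 and 22 with median centring, 3411 and 0 without normalization, and 203 and 123 with median centring without LOAD 2 and LOAD 5. They numbered 496 to 692 and 423 to 611 with an array left out. Permutation tests of the list medians were planned, but the lists were chosen with results of these arrays known, so their calls support nothing. Of 14 lists, those past an adjusted p of 0.05 were 3, 0 with median centring, where heme synthesis had an r of -0.035, 5 without the 2 arrays farthest from each list's median, and 2 to 4 with an array left out. Leaving out LOAD 1, 2, 3 or 4 or SHAM 3 or 5 ended the call for heme synthesis (adjusted p = 0.0706, 0.115, 0.0792, 0.0807, 0.0721 and 0.0844), and leaving out LOAD 2 and LOAD 5 together that for the erythroid list (0.0603). The cause was not tested.

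The replicate numbers 3, 4 and 5 of LOAD and SHAM each shared a scan batch, as did numbers 1 and 2 together, and no rat was in both groups. The deviations of same-numbered arrays correlated between -0.41 and 0.07. With the replicate number as a block, LOAD minus SHAM was 0.02 (standard error 0.39, limma, adjusted p = 0.999), and the level differences were -0.13 and -0.15. The number of arrays limits what these values can show.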
